A study of Homo sapiens with 6 samples.

Results

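The genes described here carry a signal from a death receptor at the cell surface to caspase-8, together with TRAF6, a ubiquitin ligase. They are the 10 rows of the deposited expression table, of 60843 in all, whose gene names are TNFSF10, FAS, TNFRSF10A, TNFRSF10B, TNFRSF10D, FADD, CASP8, CFLAR, RIPK1 and TRAF6. Death receptors of the tumour necrosis factor receptor family bind a trimeric ligand, such as TRAIL (encoded by TNFSF10), and recruit the adaptor FADD through their death domains. FADD gathers caspase-8, which cleaves itself into an active protease and starts apoptosis, while the caspase-like protein encoded by CFLAR limits that step and RIPK1 directs the complex to survival or death. TP53INP2 is known mainly for its part in autophagy, and published work also describes it as a scaffold that binds caspase-8 and favours its ubiquitination by TRAF6, a step at the protein level that RNA values do not show.

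RNA was sequenced from SW872-S, a human liposarcoma line, in 2 groups of 3 libraries. TP53INP2_OE cells carried a plasmid that overexpresses TP53INP2, and NC cells were the control, labelled TP53INP2 NC. Both groups were grown in the same serum-containing medium with no further treatment in the labels. Whether NC cells carried an empty plasmid, whether expression was stable, whether a group was 1 clone or a pool, and whether its libraries came from separate cultures are points the labels leave unstated. The spread behind each p-value may therefore be technical. All 6 libraries carry the same line name, although the design text speaks of different cell sources without naming them, so a difference of source between the groups and the plasmid cannot be told apart. The study is concerned with how TP53INP2 acts on dedifferentiated liposarcoma cells.

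The values are FPKM (fragments scaled to gene length and library depth), as deposited. They corresponded to between 16038062 and 17607612 reads per library. Of 9 adipocyte markers, 7 were under 1 FPKM in every library and ADIPOQ, FABP4 and LEP were at 0, while PPARG was between 7.0 and 7.70 FPKM in TP53INP2_OE and between 6.44 and 6.79 FPKM in NC. LPL was between 11.3 and 12.3 FPKM in TP53INP2_OE and between 12.5 and 13.6 FPKM in NC, and neither gene passed the test described in the next paragraph. All 7 immune markers were under 1 FPKM in every library, and their summed level was 0.468 to 0.754 FPKM in TP53INP2_OE and 0.474 to 0.926 FPKM in NC. The endothelial genes CDH5 (27.3 to 28.6 FPKM in TP53INP2_OE, 30.1 to 35.0 FPKM in NC) and TEK (14.0 to 14.2 FPKM in TP53INP2_OE, 10.6 to 11.9 FPKM in NC) moved in opposite directions, and both passed that test. Of the other endothelial genes listed, PECAM1 and VWF did not pass and CLDN5 was too low to be tested. With GC content and gene length fitted out, as described further on, TEK still passed (log2 fold change 0.21) and CDH5 did not (-0.08). The summed endothelial list level was 46.1 to 47.8 FPKM in TP53INP2_OE and 46.5 to 51.3 FPKM in NC, and their part in the results was not tested. TP53INP2 itself was at 18.9, 23.4 and 27.1 FPKM in TP53INP2_OE, against 10.6, 9.45 and 9.67 FPKM in NC. All 3 TP53INP2_OE libraries were above all 3 NC libraries, as labelled (log2 fold change 1.13, SE 0.12; limma, adjusted p = 0.00282).

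Of the 10 genes, 4 rose in TP53INP2_OE (FAS, CASP8, CFLAR and TRAF6), 2 fell (TNFRSF10D and FADD) and 4 did not pass the test (TNFSF10, TNFRSF10A, TNFRSF10B and RIPK1). The test was limma on log2(FPKM + 1), with p-values adjusted over all 14791 genes of at least 0.5 FPKM on average and a threshold of 0.05. All 10 genes entered it, and none did so through 1 group alone, since the lowest group mean was 0.777 FPKM (TNFSF10 in NC). Across all genes tested, 35.0% were called, 16.4% as higher and 18.6% as lower, and the median log2 fold change of the 10 genes was 0.06, against 0.00 for all. All 10 are protein-coding, and when protein-coding genes alone were tested, 50.8% of them were called (23.7% higher, 27.1% lower), the same 6 of these 10 among them. The libraries of the 2 groups did not overlap for 6 of the 10 genes and for 50.8% of all genes tested (25.2% higher, 25.6% lower). The count of 6 of 10 is thus near the share of all protein-coding genes called. With 1 library left out, the count of 6 went to 2 without NC replicate 1, to 3 without TP53INP2_OE replicate 3 and to 4 or 5 without any other. Calls over all 14791 genes fell as well, from 5183 to 3276 without NC replicate 1 and to 4191 without TP53INP2_OE replicate 3. In limma's voom on recovered reads the same 6 genes passed, with 41.6% of all genes called (20.2% higher, 21.5% lower). With no filter on low values FAS, CASP8 and FADD passed, with 11.2% of genes called (5.18% higher, 6.05% lower). An exact two-sided permutation test of a single gene cannot go below p = 0.1 with 3 libraries against 3.

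**Figure D1:**
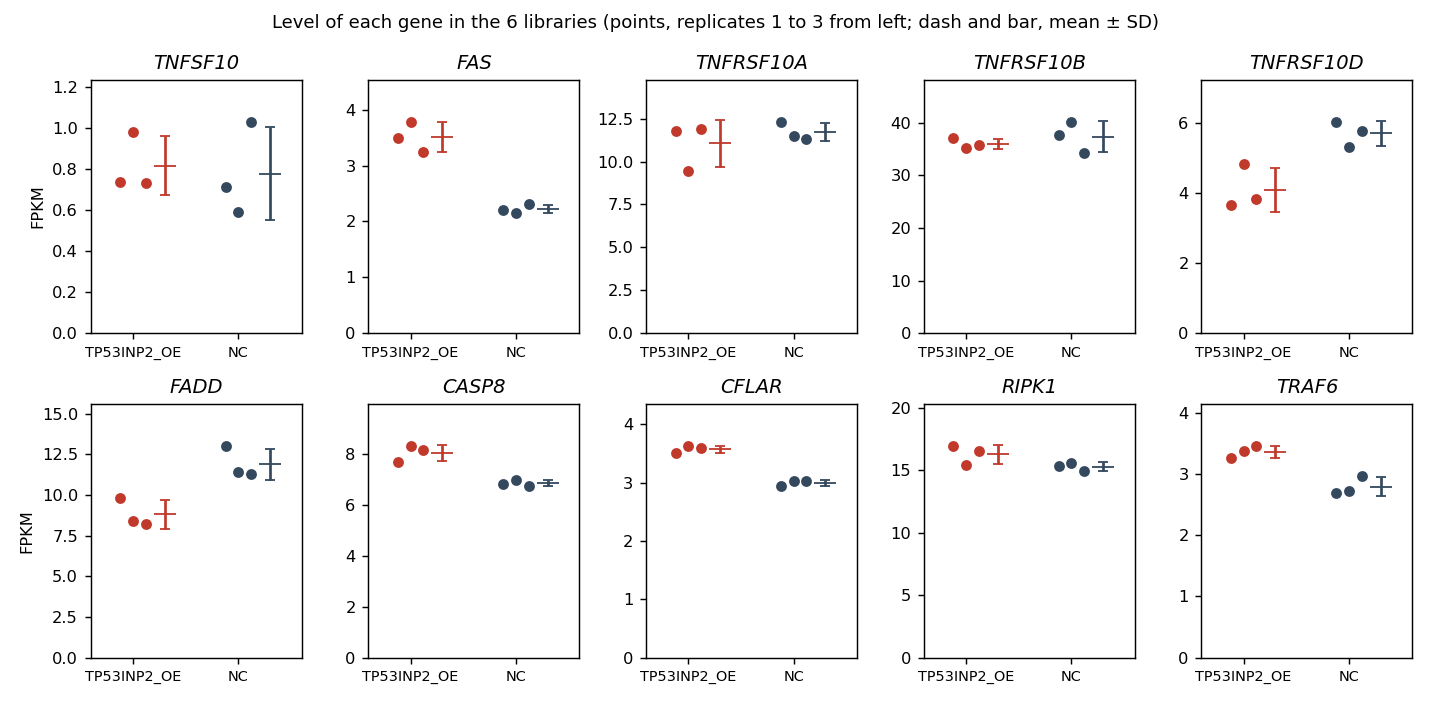
FPKM of each of the 10 genes in the 3 TP53INP2_OE libraries (left, red) and the 3 NC libraries (right, dark), with the group mean ± SD beside the points and a linear axis from 0 that differs between panels. FAS, CASP8, CFLAR and TRAF6 lie higher in every TP53INP2_OE library, TNFRSF10D and FADD lie lower, and the groups overlap for the other 4 genes.

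The promoters of 3 genes that rose and 1 that fell are shown, since base composition is described for these genes further on. Each sequence runs 5′ to 3′ from 250 bases before a RefSeq start to 50 bases after it, on GRCh38.p14, at chr10:88990548-88990847 (plus strand) for FAS, chr2:201233213-201233512 (plus strand) for CASP8, chr11:36510223-36510522 (minus strand) for TRAF6 and chr11:70203046-70203345 (plus strand) for FADD. For FAS and CASP8 RefSeq lists 3 starts each and the first is shown. These starts are not always those of the deposited table, whose gene models for FAS, CASP8 and FADD begin further upstream. Capitals mark every match, on either strand, to GGGCGG (the GC box), TGANTCA or TATAAA (the TATA box). TGANTCA is looser than the AP-1 site, since it allows any middle base where that site has C or G.
FAS: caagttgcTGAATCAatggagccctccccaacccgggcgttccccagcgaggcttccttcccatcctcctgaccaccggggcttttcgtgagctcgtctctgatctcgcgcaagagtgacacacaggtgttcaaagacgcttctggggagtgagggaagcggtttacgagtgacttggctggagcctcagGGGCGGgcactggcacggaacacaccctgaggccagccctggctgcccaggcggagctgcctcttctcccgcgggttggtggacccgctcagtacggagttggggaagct
CASP8: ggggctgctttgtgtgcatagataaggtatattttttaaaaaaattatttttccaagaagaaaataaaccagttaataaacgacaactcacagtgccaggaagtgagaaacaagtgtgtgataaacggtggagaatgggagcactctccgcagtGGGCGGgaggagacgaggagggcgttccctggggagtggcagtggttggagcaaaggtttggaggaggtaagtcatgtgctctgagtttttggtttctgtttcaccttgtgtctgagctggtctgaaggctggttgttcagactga
TRAF6: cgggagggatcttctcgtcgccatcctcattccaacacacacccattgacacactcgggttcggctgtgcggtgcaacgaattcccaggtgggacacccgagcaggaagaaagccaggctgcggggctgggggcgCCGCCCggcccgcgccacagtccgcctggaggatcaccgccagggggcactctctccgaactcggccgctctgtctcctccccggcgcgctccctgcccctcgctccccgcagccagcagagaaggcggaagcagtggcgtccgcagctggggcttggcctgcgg
FADD: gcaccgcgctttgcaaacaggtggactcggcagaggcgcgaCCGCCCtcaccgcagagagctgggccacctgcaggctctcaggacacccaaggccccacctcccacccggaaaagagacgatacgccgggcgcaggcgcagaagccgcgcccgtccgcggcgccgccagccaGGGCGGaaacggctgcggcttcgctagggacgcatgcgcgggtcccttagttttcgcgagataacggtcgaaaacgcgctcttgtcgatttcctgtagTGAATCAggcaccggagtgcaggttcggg
These promoters are 63.0% GC for FAS, 46.3% for CASP8, 69.7% for TRAF6 and 66.7% for FADD, beside a median of 58.7% over 35116 promoters. The GC box was found in all 4 and in 45.0% of all promoters. It was also in the promoters of CFLAR, which rose, and RIPK1, which did not pass, but not in that of TNFSF10. The promoters of TNFRSF10A, TNFRSF10B and TNFRSF10D were not examined. The TGANTCA match lies 242 bases before the start in FAS and 21 bases after it in FADD. It reads TGAATCA in both, which is not the AP-1 site itself, and 7.7% of all promoters hold a match to TGANTCA. None of the 4 holds a TATAAA, which 11.5% of all promoters do, and no matches overlapped in them. The promoters of TNFSF10 and RIPK1, not shown, hold one at 31 and 30 bases before the start. The transcripts of these genes are 39.1% GC for FAS, 42.6% for CASP8, 41.9% for TRAF6 and 58.6% for FADD.

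TNFSF10 (chromosome 3, positions 172505508 to 172523475), which encodes the ligand TRAIL, had the lowest level of the 10. It stood at 0.736, 0.982 and 0.735 FPKM in TP53INP2_OE, against 0.713, 0.591 and 1.03 FPKM in NC. The highest and the lowest of the 6 libraries were both NC. These values rest on 41 to 58 reads in TP53INP2_OE and 36 to 63 in NC, and the log2 fold change was 0.04 with a 95% interval from -0.27 to 0.35 (limma, adjusted p = 0.855). FASLG, the ligand of FAS, had no read in 5 of the 6 libraries, so neither death ligand was expressed at more than about 1 FPKM in any library.

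FAS (chromosome 10, positions 88990531 to 89017059), the receptor for Fas ligand, rose. Its change was the largest of the 10 as deposited, but not with GC content and gene length fitted out, with a pseudocount of 5 or without TP53INP2_OE replicate 2. Its level was 3.50, 3.78 and 3.24 FPKM in TP53INP2_OE, against 2.21, 2.16 and 2.31 FPKM in NC. Every TP53INP2_OE library was above every NC library, and the gap between the groups was wider than the range within either. The means were 3.51 ± 0.27 FPKM in TP53INP2_OE and 2.23 ± 0.08 FPKM in NC (SD, n = 3 each), a ratio of 1.57. The log2 fold change was 0.48 (SE 0.07; limma, adjusted p = 0.00371), and FAS passed with each library left out in turn (adjusted p between 0.0107 and 0.02). In bulk RNA, more cells that express a gene and more RNA per cell cannot be told apart.

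The TRAIL receptors that signal were the most abundant of the 4 receptors among the 10 genes and did not pass. TNFRSF10B was at 37.0, 35.2 and 35.7 FPKM in TP53INP2_OE and 37.6, 40.1 and 34.3 FPKM in NC, which is the highest level of the 10 genes. The NC libraries spread around the TP53INP2_OE libraries, and the log2 fold change was -0.05, with a 95% interval from -0.19 to 0.09 (limma, adjusted p = 0.559). TNFRSF10A was at 11.8, 9.45 and 11.9 FPKM in TP53INP2_OE and 12.3, 11.5 and 11.3 FPKM in NC. TP53INP2_OE replicate 2 was the lowest, and the other 5 libraries overlapped between the groups. Its log2 fold change was -0.08, with an interval from -0.29 to 0.13 (limma, adjusted p = 0.526).

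TNFRSF10D, a decoy TRAIL receptor with a truncated death domain, fell. It was at 3.65, 4.81 and 3.82 FPKM in TP53INP2_OE, against 6.02, 5.31 and 5.75 FPKM in NC. The groups did not overlap, although TP53INP2_OE replicate 2 came close to NC replicate 2. The means were 4.09 ± 0.63 FPKM in TP53INP2_OE and 5.69 ± 0.36 FPKM in NC (SD, n = 3 each), and the log2 fold change was -0.40 (SE 0.09; limma, adjusted p = 0.0182). The call was lost without NC replicate 1 (adjusted p = 0.0660), NC replicate 3 (0.0535) or TP53INP2_OE replicate 3 (0.0543). The summed FPKM of TNFRSF10A and TNFRSF10B served as the measure of signalling receptors, and the level of TNFRSF10D relative to it was 0.0748, 0.108 and 0.0801 in TP53INP2_OE, against 0.121, 0.103 and 0.126 in NC. These ratios overlapped between the groups. TNFRSF10A, TNFRSF10B and TNFRSF10D are neighbours on chromosome 8 with related sequences. How the authors counted reads that match several of them is unstated, and TNFRSF10C, the other decoy of that cluster, had at most 0.121 FPKM in a library.

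FADD (chromosome 11, positions 70203163 to 70207390), the adaptor between receptor and caspase, also fell. Its level was 9.83, 8.38 and 8.24 FPKM in TP53INP2_OE, against 13.0, 11.4 and 11.3 FPKM in NC. All 3 TP53INP2_OE libraries were below all 3 NC libraries, and replicate 1 was the highest in each group. The means were 8.82 ± 0.88 FPKM in TP53INP2_OE and 11.9 ± 0.93 FPKM in NC (SD, n = 3 each), and on the log2 scale the difference was -0.39 (SE 0.08; limma, adjusted p = 0.0111). The call held with each library left out (adjusted p between 0.00860 and 0.0390). It was lost with GC content and gene length fitted out (log2 fold change -0.15, adjusted p = 0.196).

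CASP8 and CFLAR lie on the same strand of chromosome 2, at positions 201233443 to 201287711 and 201116154 to 201176687, and rose by similar amounts. CASP8, the initiator caspase, was at 7.69, 8.30 and 8.14 FPKM in TP53INP2_OE, against 6.84, 6.99 and 6.73 FPKM in NC. The NC libraries lay close together and below all TP53INP2_OE libraries. The log2 fold change was 0.20 (SE 0.04; limma, adjusted p = 0.0147), and it missed the threshold without NC replicate 1 (adjusted p = 0.0524) and with GC content and gene length fitted out (0.316).

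CFLAR was at 3.50, 3.62 and 3.59 FPKM in TP53INP2_OE, against 2.94, 3.02 and 3.03 FPKM in NC. The libraries of each group lay close together and the groups did not overlap. The log2 fold change was 0.19 (SE 0.05; limma, adjusted p = 0.0239). The call held without TP53INP2_OE replicate 1 (adjusted p = 0.0443) and was lost without any 1 of the other 5 libraries (adjusted p between 0.0548 and 0.0794) or with GC content and gene length fitted out (0.294). CFLAR had more reads than CASP8 in every library, 1273 to 1398 against 901 to 1032 in TP53INP2_OE and 1077 to 1213 against 807 to 896 in NC. Its lower FPKM follows from the length that the table assigns, 22479 bases for CFLAR and 7243 for CASP8. The isoforms of CFLAR, which differ in their effect on caspase-8, are summed in 1 value.

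The ratio of CFLAR to CASP8 within a library was 0.455, 0.436 and 0.441 in TP53INP2_OE, against 0.430, 0.432 and 0.450 in NC. These values overlapped, with means of 0.444 ± 0.01 in TP53INP2_OE and 0.437 ± 0.01 in NC (SD, n = 3 each). The ratio of FADD to CASP8, chosen after its values were seen, was 1.28, 1.01 and 1.01 in TP53INP2_OE, against 1.90, 1.63 and 1.68 in NC. Here the groups did not overlap, and the mean ratio was 1.10 ± 0.16 in TP53INP2_OE and 1.74 ± 0.14 in NC (SD, n = 3 each). FADD was lower and CASP8 higher in every TP53INP2_OE library, so this separation had to follow and adds nothing to either call. Neither call held with GC content and gene length fitted out (limma, adjusted p = 0.196 for FADD and 0.316 for CASP8).

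**Figure D2:**
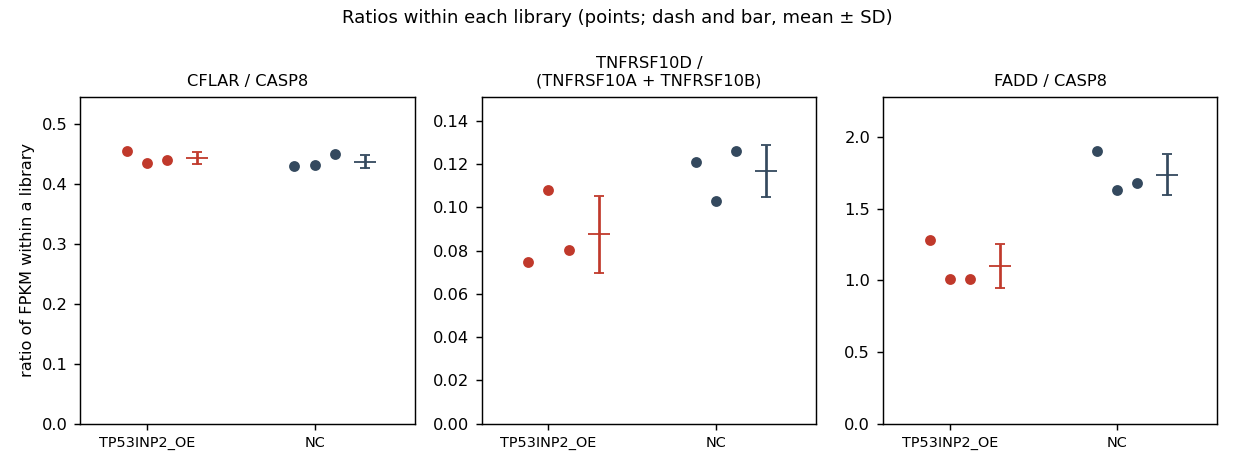
Ratios of FPKM within each library for CFLAR over CASP8, TNFRSF10D over the sum of TNFRSF10A and TNFRSF10B, and FADD over CASP8, with TP53INP2_OE on the left of each panel and NC on the right, the dash and bar giving the mean ± SD of 3 libraries. The CFLAR to CASP8 ratio stays between 0.430 and 0.455 in all 6 libraries, and the decoy ratio overlaps between groups. The FADD to CASP8 ratio is lower in all 3 TP53INP2_OE libraries, which follows from the separation of each of these genes.

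RIPK1 (chromosome 6, positions 3063991 to 3115187), a kinase of the receptor complexes, was the second most abundant of the 10 genes. It was at 16.9, 15.4 and 16.5 FPKM in TP53INP2_OE and 15.3, 15.6 and 14.9 FPKM in NC. The groups overlapped through TP53INP2_OE replicate 2. The log2 fold change was 0.08, with a 95% interval from -0.02 to 0.19 (limma, adjusted p = 0.193).

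TRAF6 (chromosome 11, positions 36483769 to 36510272), the ubiquitin ligase, was at 3.26, 3.37 and 3.45 FPKM in TP53INP2_OE, against 2.68, 2.72 and 2.97 FPKM in NC. The groups did not overlap, and NC replicate 3 was the nearest of its group to TP53INP2_OE. The log2 fold change was 0.20 (SE 0.06; limma, adjusted p = 0.0337). TRAF6 passed without NC replicate 3 (adjusted p = 0.0397) and missed the threshold without any 1 of the other 5 libraries (adjusted p between 0.0550 and 0.107) or with GC content and gene length fitted out (0.545).

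By level per length, the order in TP53INP2_OE was TNFRSF10B, RIPK1, TNFRSF10A, FADD, CASP8, TNFRSF10D, CFLAR, FAS, TRAF6 and TNFSF10. In that group the ranges of TNFRSF10A and FADD, of FADD and CASP8, of CFLAR and FAS, and of FAS and TRAF6 overlapped. In NC the order was TNFRSF10B, RIPK1, FADD, TNFRSF10A, CASP8, TNFRSF10D, CFLAR, TRAF6, FAS and TNFSF10, with overlap for FADD and TNFRSF10A and for CFLAR and TRAF6. FAS was therefore below TRAF6 in every NC library and level with it in TP53INP2_OE.

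Across the table, differences went with the GC content of the transcripts. When 11270 protein-coding genes were divided into 5 equal groups by GC content, the group from 30.2% to 40.8% had a median log2 fold change of 0.22, with 1262 genes higher and 16 lower. The group from 58.2% to 73.9% had a median of -0.29, with 7 higher and 1391 lower. FAS (39.1% GC) and TNFSF10 (40.2%) belonged to the lowest group. TRAF6 (41.9%), CASP8 (42.6%) and CFLAR (44.1%) fell in the next, whose median was 0.12, and FADD (58.6%) in the highest. TNFRSF10D (47.1%), RIPK1 (49.6%), TNFRSF10B and TNFRSF10A (50.1%) were in the middle group, where the median was 0.00. Among the 10 genes, TNFRSF10D (-0.40, group median 0.00) and FAS (0.48, group median 0.22) were furthest from the median of their group. TNFSF10 (0.04) was below the median of the group it shares with FAS, but its interval, from -0.27 to 0.35, includes that median.

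With the trends on GC content and gene length subtracted in every library before the same test, 1 of the 10 genes rose and 1 fell, where 10.4% of all genes were called, 4.53% as higher and 5.88% as lower. FAS kept a log2 fold change of 0.29 (limma, adjusted p = 0.0300) and TNFRSF10D one of -0.42 (adjusted p = 0.0399). FADD was at -0.15 (adjusted p = 0.196), with an interval from -0.32 to 0.01. CASP8 was at 0.07 (adjusted p = 0.316), CFLAR at 0.08 (0.294) and TRAF6 at 0.06 (0.545). RIPK1 was at 0.11 (adjusted p = 0.112), TNFRSF10A at -0.03, TNFRSF10B at -0.02 and TNFSF10 at -0.13. The fit removes any change that goes with GC content, whatever its source, and the part of GC content in the results was not tested further.

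**Figure D3:**
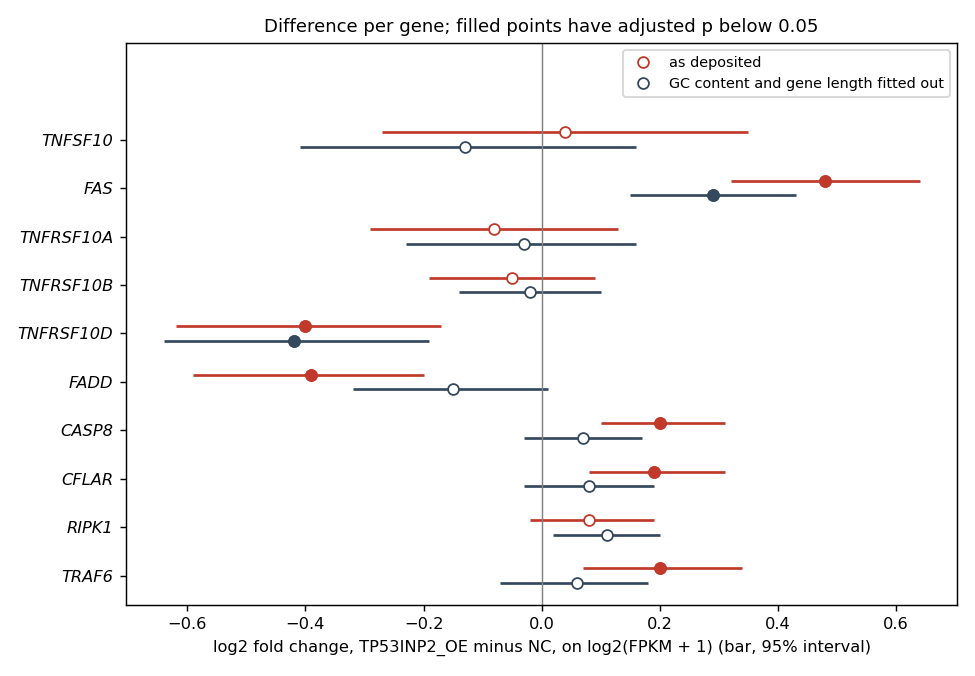
Log2 fold change of each gene, TP53INP2_OE minus NC on log2(FPKM + 1), with 95% intervals, as deposited (red, upper) and with GC content and gene length fitted out (dark, lower); filled points have an adjusted p below 0.05. FAS and TNFRSF10D are filled in both fits, and FADD, CASP8, CFLAR and TRAF6 only as deposited.

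**Figure D4:**
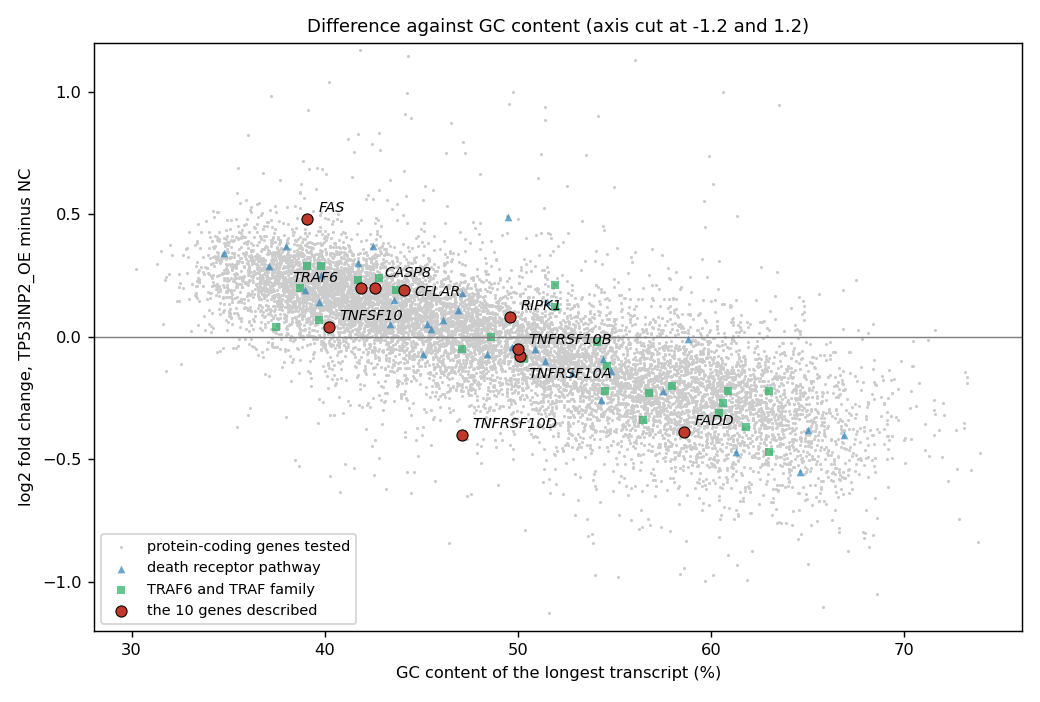
Log2 fold change (TP53INP2_OE minus NC) against GC content of the longest transcript for protein-coding genes tested (grey, with extreme values outside the axis), the tested genes of the pathway lists (blue triangles and green squares) and the 10 genes described (red, named). FAS at 0.48 and TNFRSF10D at -0.40 lie toward the upper and lower edge of the genes of similar GC content, while CASP8, CFLAR, TRAF6 and FADD lie within the band.

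Other genes of the death receptor pathway moved in both directions. Of 38 listed, 32 were tested, 8 rose, 6 fell and 18 did not pass, with a median log2 fold change of 0.04. The share called was 43.8%, beside 35.0% of all genes in the same fit. When protein-coding genes alone were tested, 15 of the 32 were called (9 higher, 6 lower), beside 50.8% of all protein-coding genes. TNFAIP3, which encodes the ubiquitin-editing enzyme A20, was at 56.0, 59.0 and 62.7 FPKM in TP53INP2_OE, against 40.2, 47.5 and 38.3 FPKM in NC, and rose by 0.49 on the log2 scale (limma, adjusted p = 0.00653). BIRC2, which encodes a ubiquitin ligase that acts on RIPK1, rose to 24.7 ± 0.43 FPKM in TP53INP2_OE, against 18.9 ± 0.27 FPKM in NC (SD, n = 3 each). RBCK1 and SHARPIN, subunits of the linear ubiquitin chain assembly complex, fell by 0.55 and 0.40 on the log2 scale. RBCK1 was at 24.1, 24.1 and 23.7 FPKM in TP53INP2_OE, against 36.7, 37.3 and 32.8 FPKM in NC. TRAF2 and TRADD, adaptors of the tumour necrosis factor receptor, fell by 0.47 and 0.38. APAF1, the scaffold that activates caspase-9, rose by 0.30 on the log2 scale and was chosen after its value was seen.

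With GC content and length fitted out, 4 genes of that list rose and 2 fell (10.4% of all genes were called). TNFAIP3 (0.51), BIRC2 (0.17), APAF1 (0.15), RBCK1 (-0.24) and TRAF2 (-0.20) still passed. SPATA2 passed in this fit (0.21; limma, adjusted p = 0.0320) but not as deposited (adjusted p = 0.0715). SHARPIN (-0.07) and TRADD (-0.06) did not. TNFAIP3, with a transcript of 49.5% GC, changed by a similar amount in both fits. Listed genes below the filter were FASLG, TNFRSF10C, TNFRSF6B, DIABLO, RNF31 and RIPK3. RIPK3, the necroptosis kinase, and TNFRSF6B, a soluble decoy for Fas ligand, were listed at 0 in all 6 libraries.

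The list of TRAF family members and TRAF6 partners held 26 genes, of which 25 were analysed and tested. Of these 6 rose and 7 fell, with a median log2 fold change of -0.05. The share called was 52.0%, beside 35.0% of all genes in the same fit. When protein-coding genes alone were tested, 15 of the 25 were called (6 higher, 9 lower), beside 50.8% of all protein-coding genes. IRAK1, a kinase that acts upstream of TRAF6, was at 96.7, 86.2 and 92.1 FPKM in TP53INP2_OE, against 131, 128 and 122 FPKM in NC, and fell by 0.47 on the log2 scale (limma, adjusted p = 0.00284). ECSIT, a TRAF6-binding adaptor, and TRAF7 fell by 0.37 and 0.27. TAB2 and TAB3, which bind the ubiquitin chains that TRAF6 makes, each rose by 0.29, and TRAF5 rose by 0.24. The call for TAB2 was lost without NC replicate 1 (adjusted p = 0.0506), and that for TAB3 without NC replicate 1 (0.0578) or NC replicate 2 (0.0516). UBE2N, the conjugating enzyme that works with TRAF6, rose by 0.23, and was chosen after its value was seen. Without NC replicate 1, 3 genes of the list rose and 5 fell, where 1460 of all 14791 genes rose and 1816 fell. After GC content and length were fitted out, IRAK2 rose (0.29, limma adjusted p = 0.0291) and IRAK1 fell (-0.17, adjusted p = 0.0161), beside 10.4% of all genes called. IRAK2, a related kinase, was named after its value was seen. TAB2 (0.11), TAB3 (0.09), ECSIT (-0.09), UBE2N (0.08), TRAF5 (0.11) and TRAF7 (-0.01) did not pass in that fit.

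Profiles were compared with those of all other protein-coding genes tested by the root mean square difference of centred log2(FPKM + 1) values over the 6 libraries, a smaller value meaning a closer profile. Nearest to FAS were PRRG1 (0.036), DENND4A (0.036) and SMARCA5 (0.037). Nearest to CASP8 were COP1 (0.012), GPX8 and ASPH (0.013 each), and nearest to TRAF6 were SRSF1 (0.008), TYW5 and TTC17 (0.011 each). SMARCA5, for example, was at 18.2 ± 1.05 FPKM in TP53INP2_OE and 13.1 ± 0.48 FPKM in NC (SD, n = 3 each). The transcripts of the genes nearest to FAS were 37.4% to 39.0% GC, those nearest to CASP8 40.2% to 49.0% and those nearest to TRAF6 38.3% to 45.0%.

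No source used here says whether counting took strand into account. FAS overlaps ACTA2 on the opposite strand, which had at most 9 reads in a library. CFLAR overlaps CFLAR-AS1, with at most 46 reads, and RIPK1 overlaps AL031963.3, with at most 26. TNFRSF10B overlaps RHOBTB2, which had up to 535 reads and was at 2.77 to 3.83 FPKM in TP53INP2_OE and 4.18 to 4.59 FPKM in NC. TNFRSF10A overlaps TNFRSF10A-AS1, with at most 59 reads. CASP8, TRAF6 and TNFRSF10D overlap no gene of the table, and the gene that overlaps FADD had no reads.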

How the data were processed

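The authors deposited FPKM values for 60843 genes in 6 libraries, with gene name, position, length and type, per the file headers. Bowtie 0.12.2 and 2 builds, mm8 and GRCh38, are listed in the submitters' processing notes with no role for either build, and how reads were counted is unstated. Positions are as the table gives them. Of the gene IDs, 96.15% were in GENCODE 29 (GRCh38). Among them the chromosome matched for 99.92% and at least one gene boundary for 92.75%.

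Reads were recovered by multiplying the deposited FPKM by gene length and scaling so that the lowest product above 0 in a library equals 1; 100% of values came out whole (tolerance 0.01). Chi-square per degree of freedom between libraries was 2.58 to 4.97 within groups and 13.6 to 33.0 between them, so no library was counted as a copy of another.

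Groups and replicate numbers came from sample titles. After a filter at a mean of 0.5 FPKM, log2(FPKM + 1) values of TP53INP2_OE were compared with those of NC by limma 3.58.1 in R 4.3.3 (two-sided, empirical Bayes with trend, Benjamini-Hochberg over 14791 genes). Fold changes on this scale understate those of low genes. For the GC correction, each gene was centred on its mean, and natural splines (df = 5) in the GC content of its longest GENCODE 29 transcript and in log2 gene length were fitted to every library and subtracted (14548 genes). limma's voom on recovered reads was an alternative, and the fit was tested on simulated data. The members and lists were chosen with earlier results of these data known. All members are named, with up to 6 of the most changed genes and the genes below the filter from each pathway list, and the 3 nearest profiles to each of FAS, CASP8 and TRAF6. IRAK4, on the second list, was not analysed here.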

Additional observations from a re-analysis of the deposited data

How the results depend on the processing

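The 6 calls among the 10 genes stood under either pseudocount (0.1 or 5), TPM, quantile normalization, protein-coding genes alone and voom on recovered reads. With no filter on low values 3 of the 10 genes passed (FAS, CASP8 and FADD), among genes of at least 5 FPKM 2 of the 5 left (where 62.5% of all genes were called), and with GC content and gene length fitted out 2. With a replicate block added to that correction 0 of the 10 passed by limma, the lowest adjusted p being 0.0806, for FAS, and 4 of the 10 were under 0.05 unadjusted; voom, run without these terms, called 6. With 1 library left out the count was between 2 and 5, lowest without NC replicate 1 (2, FAS and FADD) and 3 without TP53INP2_OE replicate 3. Over all genes the count of 5183 went to 1514 with GC content and length fitted out, to 668 with the block as well, and to between 3276 and 4779 with 1 library left out.

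The death receptor pathway list had 14 calls, against 6 with GC content and length fitted out and 2 with the block as well, and 11 to 12 with 1 library left out. The TRAF list had 13, against 2 and 1 under those settings and 8 to 13 with 1 library left out. Signs turned for genes that had not passed. TNFRSF10A was at 0.020 without TP53INP2_OE replicate 2 (-0.134 to 0.020 with 1 library left out). TNFRSF10B was at 0.001 with quantile normalization and at 0.002 without NC replicate 2 (-0.108 to 0.002). TNFSF10 was at -0.129 with GC content and length fitted out, with or without the block, at -0.039 without NC replicate 2 and at -0.027 without TP53INP2_OE replicate 2 (-0.039 to 0.136). The cause of these shifts was not tested.

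Same-numbered libraries showed little shared deviation (correlations of 0.017, 0.0119 and 0.0107 over genes, beside -0.0272 to 0.015 for the other pairs). Whether equal numbers share a culture or a batch is a point the labels leave unstated, and these correlations cannot settle it. A replicate block gave 4396 calls in all and 4 among the 10 genes, with CFLAR at an adjusted p of 0.0660 and TRAF6 at 0.0661, and the lists at 11 and 12. The ratio of group means of CFLAR to CASP8 was 1.02 (1.00 to 1.03 with 1 library left out), and that of the decoy ratio 0.75 (0.66 to 0.81).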

Other observations

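Some listed genes were low or at 0 and overlap another protein-coding gene model on their own strand. They are given as values, chosen after those were seen. DIABLO, which encodes a mitochondrial antagonist of the inhibitor of apoptosis proteins, was at 0.231, 0.234 and 0.399 FPKM in TP53INP2_OE and 0.406, 0.414 and 0.379 FPKM in NC, and the overlapping AC048338.2 had at most 0.119 FPKM. RNF31, the catalytic subunit of the linear ubiquitin chain assembly complex, was at 0.306, 0.403 and 0.427 FPKM in TP53INP2_OE, against 0.218, 0.246 and 0.155 FPKM in NC. It averaged 24.8 reads a library and overlaps AL136295.5, which had at most 0.233 FPKM. Its partner RBCK1 averaged 24.0 FPKM in TP53INP2_OE and 35.6 FPKM in NC. TNFRSF6B was listed at 0 in all 6 libraries, while RTEL1-TNFRSF6B, which overlaps it, was at 0.612, 0.788 and 0.881 FPKM in TP53INP2_OE and 0.830, 0.808 and 0.944 FPKM in NC. How reads in such overlaps were counted was not tested.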
